A study of Mus musculus with 9 samples.

Results

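The livers of mice that carried an IFNα gene delivered by an adeno-associated virus (AAV-IFNα) were compared with the livers of non-injected mice (Mock). The members of the comparison were taken from the sample titles, which name 3 AAV-IFNα arrays and 3 Mock arrays of the 9 liver arrays in the series, with 1 array per mouse. The 3 other arrays came from mice that had received the AAV combination, and they served as context and helped to estimate the spread. Of 22142 probe sets, the 14715 with a log2 level above 5 in at least 2 arrays of 1 condition were compared. All groups were female C57BL/6 mice, 6 weeks old in the labels and 6 to 8 weeks old in the methods, and the liver was taken on day 15. The AAV-IFNα mice had received 1.2e+11 viral genomes (vg) of an AAV8 vector that expresses mouse IFNα1 from the EF1α promoter, given intravenously. The AAV combination mice had received the same vector at that dose together with 9.5e+11 vg of AAV-L37pA, which encodes a peptide modelled on apolipoprotein A-I. Mock mice had received no vector at all, so effects of IFNα and effects of the vector itself cannot be told apart here.

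Type I interferons bind the receptor formed by IFNAR1 and IFNAR2, and the kinases JAK1 and TYK2 then activate STAT proteins. STAT proteins pair with IRF9 and bind a promoter element called the interferon-stimulated response element (ISRE), which switches on antiviral effectors, sensors of viral nucleic acid and the machinery of antigen presentation. The liver is a large target of injected AAV8 and of circulating interferon. It consists mainly of hepatocytes, with Kupffer cells, endothelial cells, stellate cells and passing leukocytes among them. In an array of whole liver a gain of cells of a type and a gain of RNA per cell cannot be told apart.

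Array medians lay between 5.78 and 5.83, and arrays of the same group correlated with each other at 0.984 to 0.993 over all probe sets. The number of arrays limits the precision. Hepatocyte markers showed the tissue to be liver in every array, since Alb, which encodes serum albumin, read 13.55, 13.60 and 13.66 in AAV-IFNα livers and 13.61, 13.57 and 13.61 in Mock livers. Of the 3 AAV-IFNα mice, replicate 3 gave the smallest increases. Among the probe sets raised in AAV-IFNα livers, 904 were highest in replicate 1, 649 in replicate 2 and 102 in replicate 3, and the median excess over the Mock mean was 0.91, 0.88 and 0.66 on the log2 scale in those mice. Nothing in the labels says why, and the cause was not tested.

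AAV-IFNα changed the liver mostly by raising genes. Of the genes tested in each list, 29 of 30 antiviral effectors, 12 of 12 interferon-inducible GTPases, 13 of 13 genes of MHC class I presentation, 12 of 19 chemokines, 12 of 19 acute phase genes and 9 of 19 glutathione transferases were raised relative to Mock livers. Lowered were 8 of 30 genes of fatty acid oxidation and PPARα targets and 9 of 17 genes known to be higher in female liver. The last-named lists share Acot3 and Acot4, and across all lists 40 genes are in more than 1. Differences were tested two-sided with limma, and a probe set was called at a Benjamini-Hochberg adjusted p under 0.05. In all, 2400 probe sets were called, which is 16.3% of those tested. Of these, 1655 (11.2%) were raised and 745 (5.06%) were lowered, while another quantile normalization gave 1384 raised and 1157 lowered. The increases were also larger. A log2 fold change of at least 1 was seen in 600 raised and 71 lowered probe sets, and one of at least 3 in 52 raised and 7 lowered probe sets. The median over all probe sets tested was -0.02, against 0.79 among the raised and -0.57 among the lowered. The count of called probe sets fell to 1495 when AAV-IFNα replicate 1 was left out and to 1515 when replicate 2 was, and the count of lowered ones fell to 452 without Mock replicate 1 and to 485 without Mock replicate 3.

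**Figure D1:**
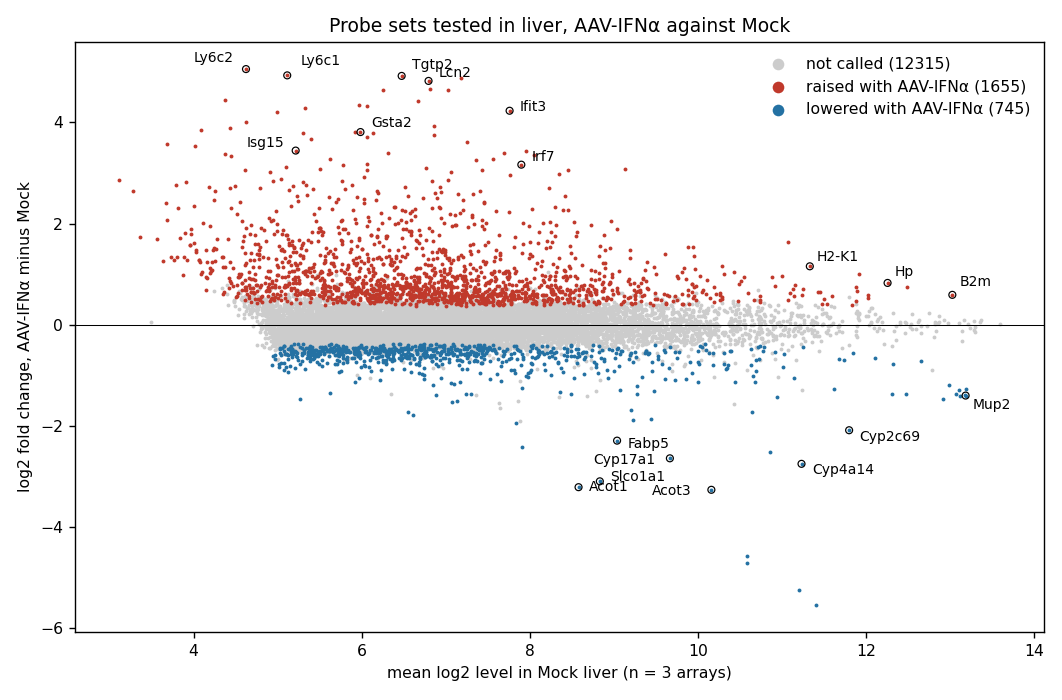
Log2 fold change of AAV-IFNα over Mock (vertical axis) against the mean log2 level in the 3 Mock livers (horizontal axis) for the 14715 probe sets tested, with raised probe sets in red, lowered ones in blue and those not called in grey. Increases of more than 4 lie at low and middle Mock levels, and the named lowered genes lie at higher Mock levels, with Mup2 and Cyp2c69 among the most abundant.

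The shares called depended little on how abundant a transcript was in Mock livers. With the probe sets split into 4 equal bins by Mock level, from the lowest to the highest, 12.3%, 10.3%, 11.9% and 10.6% of probe sets were raised, and 4.76%, 5.16%, 4.54% and 5.79% were lowered. Among the 200 genes most abundant in Mock livers, with 1 probe set per gene, 23 were raised and 18 lowered, with a median of 0.02. A change of at least 1 on the log2 scale was seen in 3 of the raised and 9 of the lowered. All values of the 3 AAV-IFNα arrays lay outside the range of the 3 Mock arrays in 5294 probe sets (36.0%), among them 2357 of the 2400 called. A total of 107 raised probe sets read 5 or less in all Mock livers and above 5 in all AAV-IFNα livers, and 52 lowered ones showed the reverse. Since the filter on low values can be passed in 1 group alone, 369 probe sets passed it in AAV-IFNα livers and not in Mock livers, of which 189 were raised, and 615 passed it in Mock livers and not in AAV-IFNα livers, of which 112 were lowered. The 4 probe sets that fell by more than 4 carry no gene symbol here and are not named.

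The probe set of Ifna1, the gene that the vector carries, read 6.56, 6.77 and 6.40 in AAV-IFNα livers and 5.76, 5.49 and 5.30 in Mock livers. It was higher in every injected mouse than in any Mock mouse, by 1.06 on the log2 scale (SE, the standard error, 0.18; adjusted p = 0.00117). Whether its probes read the transcript of the vector, of the mouse's own gene or of its close relatives is not known here. The probe sets of Ifnb1 and Ifna2, which encode other type I interferons, differed by 0.07 and -0.03 and were not called.

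Both chains of the interferon receptor rose. Ifnar2 read 10.45, 10.72 and 10.39 in AAV-IFNα livers and 9.90, 9.91 and 10.05 in Mock livers, a log2 fold change of 0.56 (SE 0.13, adjusted p = 0.00985). Ifnar1 rose by 0.48 (adjusted p = 0.0266), a call that ended when AAV-IFNα replicate 1 (0.43, adjusted p = 0.0973) or 2 (0.47, adjusted p = 0.0767) or Mock replicate 2 (0.47, adjusted p = 0.055) or 3 (0.45, adjusted p = 0.0749) was left out. Of 15 listed genes of the receptor and its JAK-STAT pathway, 14 passed the filter, 9 rose and none fell, with a median of 0.52. The largest increases were in the inhibitors of the pathway. Usp18, whose product removes ISG15 from proteins and blocks the receptor, read 9.84, 9.59 and 9.52 in AAV-IFNα livers against 6.71, 7.32 and 6.75 in Mock livers, and rose by 2.72 (adjusted p = 1.41e-07). Socs1, an inhibitor of JAK kinases, read 7.65, 6.77 and 6.47 in AAV-IFNα livers. In Mock livers it read 4.96, 4.83 and 4.98, which is under the filter value in each, and it rose by 2.04 (adjusted p = 0.000125). Irf9, the DNA-binding partner of the STAT proteins, rose by 0.95 (adjusted p = 0.000306).

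Of 9 interferon regulatory factors listed, 7 passed the filter, 4 rose and none fell, with a median of 0.74. Irf7, which drives further production of type I interferon, read 11.22, 11.07 and 10.90 in AAV-IFNα livers and 8.01, 7.87 and 7.81 in Mock livers. The groups were well apart, with a log2 fold change of 3.17 (SE 0.13, adjusted p = 5.03e-09). Irf1, a factor shared by the responses to type I and type II interferon, rose by 1.76 (adjusted p = 8.11e-06). All 18 listed sensors of nucleic acids and microbes passed the filter, 4 of them without passing it in Mock livers, and 15 rose, with a median of 1.74. Among the 14 that passed it in Mock livers, 11 rose. Among the RNA helicases that detect viral RNA in the cytosol, Ifih1 rose by 1.84, Ddx58 by 1.89 and Dhx58 by 2.26. Zbp1, which binds nucleic acids in the Z conformation and can start cell death, rose by 2.73 (adjusted p = 4.48e-08).

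Antiviral effectors rose almost throughout. Of 32 genes listed, 30 passed the filter, 3 of them not in Mock livers (Ifit2, Mx1 and Oas3), and 29 rose, with a median of 2.43. Among the 27 that passed it in Mock livers, 26 rose. None fell. Isg15, which encodes a ubiquitin-like protein attached to other proteins, read 8.87, 8.67 and 8.43 in AAV-IFNα livers and 5.22, 5.22 and 5.20 in Mock livers, so that the injected mice varied more than the Mock mice. Its log2 fold change was 3.44 (SE 0.16, adjusted p = 1.25e-08). Mx1, a GTPase gene whose protein was not measured here, read 8.89, 8.59 and 8.41 in AAV-IFNα livers. In Mock livers it read 4.29, 5.0 and 4.57, at or below the filter value, and it rose by 4.01. Oasl2, a relative of the 2′-5′ oligoadenylate synthetases, rose by 4.42, and Oas1a, a synthetase of that family, rose by 2.82 (adjusted p = 1.03e-08 and 5.93e-09).

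Isg15 and the 4 listed enzymes that attach its product to proteins or remove it were all tested and raised, with a median of 2.72 over these 5 genes. Herc6, the main ISG15 ligase of mice, read 10.57, 10.61 and 10.32 in AAV-IFNα livers against 7.27, 7.67 and 7.37 in Mock livers, a log2 fold change of 3.06. The conjugating enzyme Ube2l6 rose by 1.75 and the activating enzyme Uba7 by 0.94. The protein-modifying PARP family with its partner Dtx3l had 11 of 12 genes tested, Parp8 without passing the filter in Mock livers, of which 7 rose, with a median of 1.51. Among the 10 that passed it in Mock livers, 6 rose. Parp14, an ADP-ribosyltransferase, rose by 2.25, Dtx3l by 1.59, Parp12 by 2.04 and Parp11 by 2.01.

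GTPases induced by interferon showed the highest median of any list, 3.49, with all 12 genes that were tested raised, of 18 listed. These proteins coat and break the vacuoles in which pathogens hide. Tgtp2 read 11.56, 11.30 and 11.32 in AAV-IFNα livers and 6.38, 6.32 and 6.73 in Mock livers, a log2 fold change of 4.92 (SE 0.15, adjusted p = 2.75e-10). Gm12250 read 10.99, 10.95 and 10.77 in AAV-IFNα livers and 6.40, 6.29 and 6.07 in Mock livers, a log2 fold change of 4.65. In both genes the gap between the groups was far wider than the spread within either of them. Gvin1 rose by 4.32, Gbp2 by 3.81, Gbp3 by 3.75 and Irgm1 by 2.71. Several of these genes have near-identical neighbours, and the files do not tell how well the probes separate them. The same holds for Ifit3 and Ifit3b, which rose by 4.23 and 4.64.

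The Schlafen family, which acts on RNA and on cell growth, had all 7 listed genes tested and raised, 2 of which did not pass the filter in Mock livers, with a median of 2.22. Slfn4, known from myeloid cells, read 9.38, 8.96 and 8.10 in AAV-IFNα livers and 4.66, 4.10 and 4.35 in Mock livers, a log2 fold change of 4.45. Its level in AAV-IFNα replicate 3 was the lowest of the injected mice, as it was for Slfn2, Slfn5 and Slfn8, which rose by 2.22, 1.96 and 2.77. Of 16 TRIM ubiquitin ligases listed, 14 passed the filter, 2 of them (Trim30b and Trim30d) not in Mock livers, and 9 rose, with a median of 0.80. Among the 12 that passed it in Mock livers, 7 rose. Without AAV-IFNα replicate 1 the call of Trim25, the ligase that activates RIG-I, ended (0.62, adjusted p = 0.0582), as it did without AAV-IFNα replicate 2 (0.61, adjusted p = 0.0643). Trim30a, in a mouse gene cluster of repeated copies, rose by 4.28 and its neighbour Trim30d by 3.37. Trim21, which recognizes antibody-coated virus in the cytosol, rose by 1.84.

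Promoters were searched for the element that interferon signalling uses. Windows from 250 bases before to 50 bases after the transcription start (RefSeq, build GRCm38.p6) were matched by symbol for 10680 of 13247 genes tested, some genes having several starts and so several windows, and they were searched on both strands for the ISRE core GAAANNGAAA and for the gamma-activated sequence (GAS) TTCNNNGAA. The following 60-base windows, written 5′ to 3′ in the direction of transcription, were chosen to show the core in genes with large increases, and capitals mark the fixed bases of the core in either orientation.
Isg15: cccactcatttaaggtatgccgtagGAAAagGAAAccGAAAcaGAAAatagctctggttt
Tgtp2: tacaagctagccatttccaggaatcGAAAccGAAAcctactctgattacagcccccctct
Gbp2: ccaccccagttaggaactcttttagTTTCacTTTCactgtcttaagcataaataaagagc
Gbp3: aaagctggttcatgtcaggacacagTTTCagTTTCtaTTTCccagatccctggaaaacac
Irgm1: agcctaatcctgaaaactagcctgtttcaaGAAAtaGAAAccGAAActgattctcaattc
Oas1a: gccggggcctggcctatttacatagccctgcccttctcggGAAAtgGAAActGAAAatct
Trim30a: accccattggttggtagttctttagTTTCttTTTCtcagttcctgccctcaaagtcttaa
Socs1: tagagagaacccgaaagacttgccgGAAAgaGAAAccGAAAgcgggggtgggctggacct
Ifit3: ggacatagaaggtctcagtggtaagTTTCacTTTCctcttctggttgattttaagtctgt
Ifit3b: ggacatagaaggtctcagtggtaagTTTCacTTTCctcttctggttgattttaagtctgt

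In Isg15 (chr4:156200862-156200921, minus strand) 3 overlapping cores began 78, 72 and 66 bases before the start. In Oas1a (chr5:120907526-120907585, minus strand) a pair of overlapping cores began 20 and 14 bases before it, and in Irgm1 (chr11:48871421-48871480, minus strand) another pair began 30 and 24 bases before it. The windows of Ifit3 (chr19:34583348-34583407, plus strand) and Ifit3b (chr19:34607744-34607803, plus strand) were the same in all 60 bases. Tgtp2 lies at chr11:49064248-49064307 on the minus strand, Gbp2 at chr3:142620579-142620638 and Gbp3 at chr3:142559974-142560033 on the plus strand. Trim30a lies at chr7:104465195-104465254 and Socs1 at chr16:10785585-10785644, both on the minus strand.

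The share of promoter windows with an ISRE core was higher the larger the increase. It was 40.9% of 44 windows for genes raised by 3 or more on the log2 scale, 26.1% of 88 windows for those raised by 2 to 3, 10.3% of 409 windows for those raised by 1 to 2 and 4.34% of 1037 windows for those raised by less than 1. Among lowered genes it was 2.07% of 629 windows, among genes not called 2.50% of 11268 windows, and 3.44% over all 32851 windows. For the genes lowered by 1 or more, 3 of 47 windows (6.38%) held the core and 10.6% held the GAS. The GAS was found in 18.2%, 11.4%, 8.56% and 7.23% of the windows of raised genes in the same order, in 6.52% for lowered genes, in 6.86% for genes not called and in 8.30% over all windows. Of 8 windows of the GTPase list, 7 held the core, and of 28 windows of the antiviral list, 13 did. A match is a description of letters and no test was made. Windows without the core, such as those of Oasl2 and Lcn2, say only that these letters are absent from 300 bases.

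**Figure D2:**
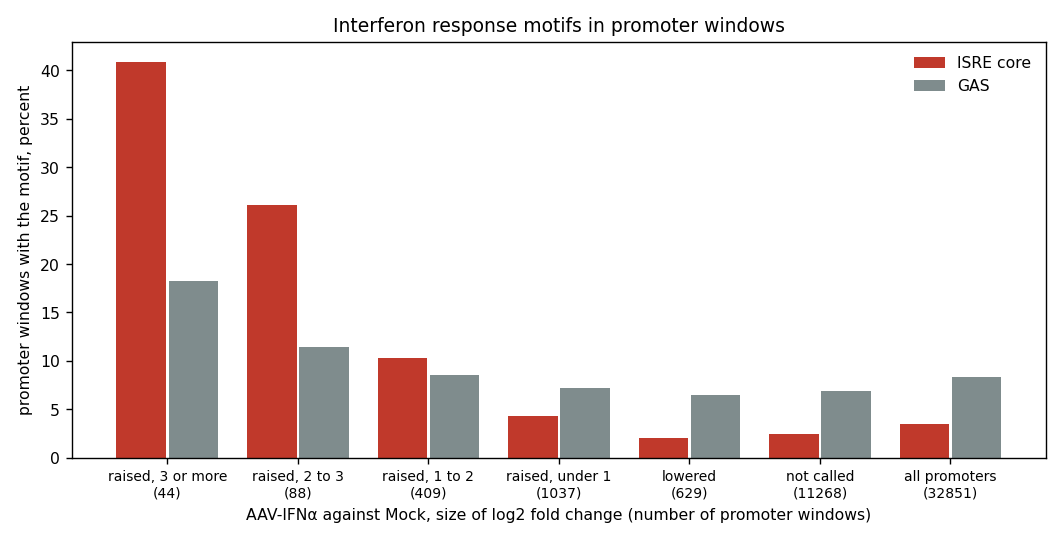
Percent of promoter windows that hold the ISRE core (red) or the GAS (grey), for genes grouped by the size of their log2 fold change in AAV-IFNα over Mock livers, with the number of windows under each group. The ISRE share is 40.9% in genes raised by 3 or more and 2.07% in lowered genes, whereas the GAS share runs between 18.2% and 6.52%.

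The machinery of MHC class I presentation, by which cells display peptides to CD8 T cells, rose in full. Of 16 genes listed, 13 passed the filter and all 13 rose, with a median of 1.11. B2m, the light chain of class I molecules and a very abundant transcript, averaged 13.62 ± 0.02 in AAV-IFNα livers and 13.03 ± 0.02 in Mock livers (SD, n = 3 each), a log2 fold change of 0.59 (limma, adjusted p = 0.00271) with no overlap. H2-K1, a classical heavy chain, rose by 1.16, H2-Q4 by 1.84 and H2-T22 by 2.01. Tap1, which carries peptides into the endoplasmic reticulum, rose by 2.64 (adjusted p = 2.29e-07). The subunits that turn the proteasome into the immunoproteasome, which cuts peptides for class I molecules, were all 5 raised, with a median of 1.46. Psmb9 read 9.34, 9.26 and 9.12 in AAV-IFNα livers and 6.71, 7.15 and 6.92 in Mock livers, a log2 fold change of 2.31, and Psmb8 rose by 2.07. Of 13 subunits of the constitutive 20S proteasome that were tested, 6 rose, with a median of 0.41, among them Psma1 (1.01), Psmb2 (1.05) and Psma7 (0.75).

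MHC class II presentation, normally confined to professional antigen-presenting cells, rose in 8 of 10 genes tested, with a median of 2.11. Ciita, the master regulator of class II genes, read 6.78, 6.40 and 6.51 in AAV-IFNα livers and 5.05, 5.03 and 4.95 in Mock livers, a log2 fold change of 1.55 (adjusted p = 3.54e-06). H2-DMb1, part of the peptide exchanger of class II molecules, read 10.15, 9.49 and 9.07 in AAV-IFNα livers and 6.65, 7.17 and 7.02 in Mock livers, a log2 fold change of 2.62. The protease Ctss, which trims the invariant chain, rose by 2.03. Over the 10 genes the mean log2 level was 8.60, 7.89 and 7.74 in AAV-IFNα livers and 6.39, 6.35 and 6.36 in Mock livers. Monocyte, Kupffer cell and NK cell markers moved with these genes, and their part in the increase was not tested.

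Chemokines rose in 12 of 19 genes tested, 2 of which (Ccl3 and Ccl19) did not pass the filter in Mock livers, with a median of 1.04, and none was lowered. Among the 17 that passed it in Mock livers, 10 rose. All 3 CXCR3 ligands, which attract T and NK cells, rose. Cxcl9 read 11.49, 11.47 and 11.23 in AAV-IFNα livers and 7.67, 8.06 and 8.14 in Mock livers, a log2 fold change of 3.44 (adjusted p = 5.93e-09), and Cxcl10 rose by 3.16. Cxcl11 read 7.24, 7.28 and 7.01 in AAV-IFNα livers and 5.29, 6.55 and 5.21 in Mock livers, where replicate 2 stood apart (adjusted p = 0.00677). Ccl2, the ligand that recruits monocytes, rose by 2.01. Ccl3, made by macrophages and lymphocytes, read 7.77, 7.22 and 6.76 in AAV-IFNα livers. It read 4.50, 4.53 and 4.46 in Mock livers, all under the filter value, and rose by 2.75. Of 15 cytokines and antagonists listed, 9 passed the filter and 8 rose. Il1b, Tnf, Il15 and Il1a did not pass it in Mock livers, and of the 5 that did 4 rose. Il18bp, a decoy for interleukin-18, rose by 2.54, Tnf by 1.82, Il15 by 1.75 and Il1b by 1.41.

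The checkpoint ligand PD-L1, encoded by Cd274, read 9.43, 9.12 and 8.73 in AAV-IFNα livers and 5.24, 5.17 and 5.51 in Mock livers, a log2 fold change of 3.79 (adjusted p = 1.03e-08). Cd47, which signals to phagocytes not to engulf a cell, rose by 1.08, whereas Ido2, a tryptophan dioxygenase of the liver, differed by -0.02. Of 8 tested genes of this list, 4 rose, and without Mock replicate 3 the count was 2. Genes of cell death rose in 12 of 15 tested, with a median of 0.92, and 3 of the 15 (Casp1, Casp12 and Ripk3) did not pass the filter in Mock livers. Among the 12 that passed it there, 9 rose. Tnfsf10, which encodes the death ligand TRAIL, read 8.81, 9.07 and 8.51 in AAV-IFNα livers and 5.87, 6.50 and 6.21 in Mock livers, a log2 fold change of 2.60. Mlkl, the effector of necroptosis, rose by 1.97, and Casp8, the caspase below death receptors, differed by 0.49 (adjusted p = 0.0601). Of 12 tested NF-kB and immediate early genes 7 rose, led by Tnfaip3, an inhibitor of NF-kB, at 1.69. Without AAV-IFNα replicate 1 the count was 2.

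**Figure D3:**
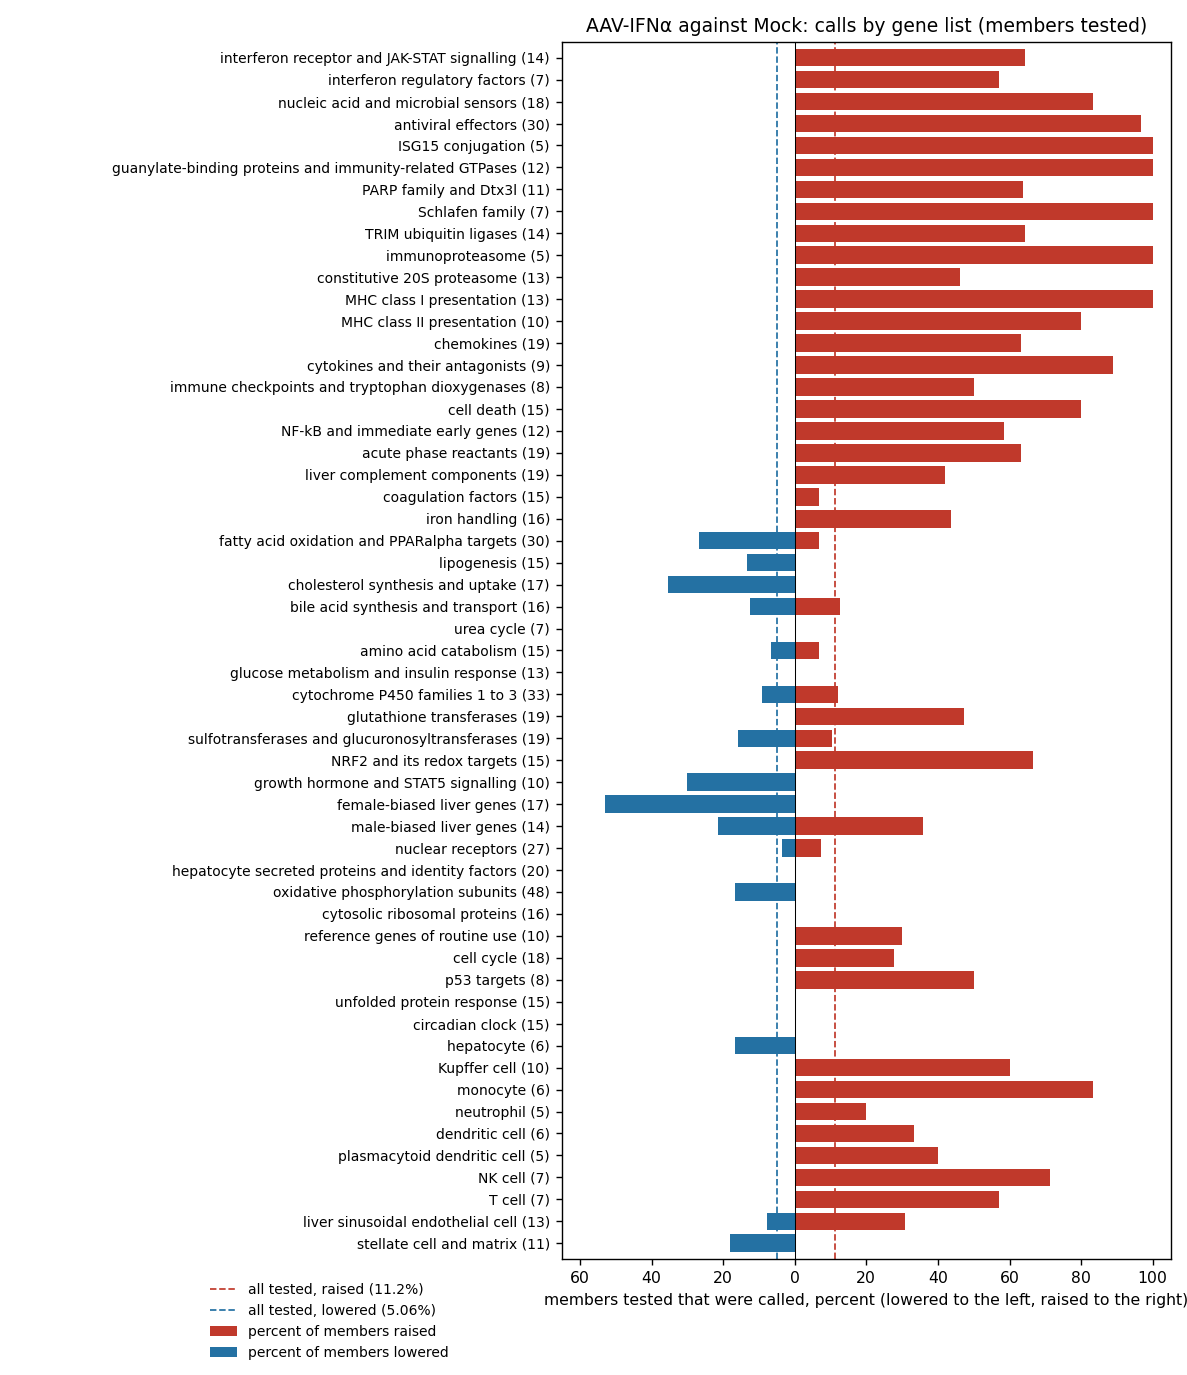
Percent of the tested members of each gene list that were raised (red, to the right) or lowered (blue, to the left) in AAV-IFNα over Mock livers, with the number of members tested in brackets, for lists with at least 5 members tested. Dashed lines mark the shares over all probe sets, 11.2% raised and 5.06% lowered. Interferon and antigen presentation lists reach up to 100%, and the female-biased list has the largest lowered share.

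Markers of several leukocytes were higher in AAV-IFNα livers. Of 9 monocyte markers listed, 6 passed the filter, 3 of them not in Mock livers, and 5 rose, with a median of 2.13. Among the 3 that passed it in Mock livers, 2 rose. Ly6c2, which marks inflammatory monocytes and has the near-identical copy Ly6c1, read 10.33, 9.88 and 8.81 in AAV-IFNα livers and 4.87, 4.77 and 4.22 in Mock livers. Its log2 fold change of 5.06 (SE 0.32, adjusted p = 2.02e-07) was the largest of any named gene, and that of Ly6c1 was 4.93. Ms4a4c rose by 4.20, Plac8 by 2.25 and Ccr2, the receptor for Ccl2, by 2.02. Ccr2 read 6.92, 6.47 and 4.99 in AAV-IFNα livers and 3.98, 4.36 and 3.97 in Mock livers, so that AAV-IFNα replicate 3 stood nearest to the Mock mice. The mean of the 6 markers lay between 7.44 and 8.87 in AAV-IFNα livers and between 5.57 and 5.76 in Mock livers.

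Of 10 Kupffer cell markers, all tested, 6 rose, with a median of 1.20. The scavenger receptor Marco read 9.91, 9.88 and 9.88 in AAV-IFNα livers and 6.76, 6.33 and 7.98 in Mock livers, a log2 fold change of 2.86. Cd5l rose by 1.55 and the complement subunit C1qa by 1.49. Clec4f, the lectin particular to Kupffer cells, read 8.43, 7.77 and 8.33 in AAV-IFNα livers and 8.12, 8.26 and 7.98 in Mock livers, with overlap and a difference of 0.05. Vsig4 differed by 0.50 (adjusted p = 0.0525). The mean of the 10 markers lay between 8.21 and 8.54 in AAV-IFNα livers and between 7.20 and 7.30 in Mock livers.

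NK cell markers rose in 5 of 7 tested, of 12 listed, with a median of 1.07, and T cell markers in 4 of 7 tested, of 12 listed, with a median of 0.87 that was 0.52 without AAV-IFNα replicate 1. In each list 2 of the 7 did not pass the filter in Mock livers, Ncr1 and Klrk1 among NK cell markers and Cd3g and Cd8b1 among T cell markers. Of the 5 markers that did pass there, 3 of the NK cell and 2 of the T cell list rose. The cytotoxic granule protease Gzmb read 8.38, 7.77 and 8.15 in AAV-IFNα livers and 5.36, 5.24 and 5.41 in Mock livers, a log2 fold change of 2.76 (adjusted p = 1.62e-07). Gzma rose by 2.26, the activating receptor Klrk1 by 1.96 and the NK cell receptor Ncr1 by 1.07. Ncr1 and Klrk1 read under 5 in every Mock liver. Cd8b1, a chain of the coreceptor of cytotoxic T cells, read 6.64, 5.61 and 5.62 in AAV-IFNα livers and 4.70, 4.78 and 4.53 in Mock livers, and rose by 1.28. Cd8a rose by 1.08 and Icos by 0.87.

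Fewer markers of the other cell types were called. Of 5 neutrophil markers tested, Csf3r, the receptor for G-CSF, was the only one called, at 1.64, and S100a9 differed by 0.32. Among dendritic cell markers Clec9a rose by 1.18 and Itgax, which did not pass the filter in Mock livers, by 0.95, while Zbtb46 differed by 0.04. Siglech, the defining receptor of plasmacytoid dendritic cells, read 4.91, 4.70 and 4.84 in AAV-IFNα livers and 5.07, 4.99 and 5.10 in Mock livers and was not called. Of the 5 markers of that cell type tested, Tcf4 rose by 0.49 and Ly6d by 1.20, and both calls depended on single arrays. Ly6d was not called when Mock replicate 1 (1.02, adjusted p = 0.0861) or 3 (1.16, adjusted p = 0.0673) or AAV-IFNα replicate 2 (0.76, adjusted p = 0.0765) was left out, nor under a trended and robust prior (adjusted p = 0.0643). Tcf4 was not called when Mock replicate 1 (0.46, adjusted p = 0.0808) or 3 (0.42, adjusted p = 0.0935) or AAV-IFNα replicate 1 (0.48, adjusted p = 0.0824) or 2 (0.43, adjusted p = 0.0991) was, with another quantile normalization (0.35, adjusted p = 0.0755) or in a fit of the 6 arrays alone (adjusted p = 0.0511). Neither of the 2 tested markers of B and plasma cells was called. Of 13 sinusoidal endothelial markers 4 rose and 1 fell. The hyaluronan receptor Stab2 read 6.79, 7.33 and 7.26 in AAV-IFNα livers and 7.94, 8.11 and 8.0 in Mock livers, a log2 fold change of -0.90, whereas the adhesion protein Cdh5 and the nuclease Dnase1l3 each rose by 1.03. Of 11 stellate cell and matrix genes tested none rose, and Lrat, which stores vitamin A, fell by 0.87 and Reln by 0.79. Of 4 erythroid markers tested Alas2, of heme synthesis, fell by 0.51 (adjusted p = 0.0441), a call that ended when Mock replicate 1 (-0.54, adjusted p = 0.0749) or 2 (-0.39, adjusted p = 0.126), any AAV-IFNα replicate (adjusted p between 0.061 and 0.135) or AAV combination replicate 2 (adjusted p = 0.0618) was left out. It also ended with no filter (adjusted p = 0.0575), with array weights (-0.47, adjusted p = 0.0635) and with a replicate block (adjusted p = 0.0577). None of the 3 cholangiocyte, 3 platelet, 4 acinar and 2 muscle markers tested was called.

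**Figure D4:**
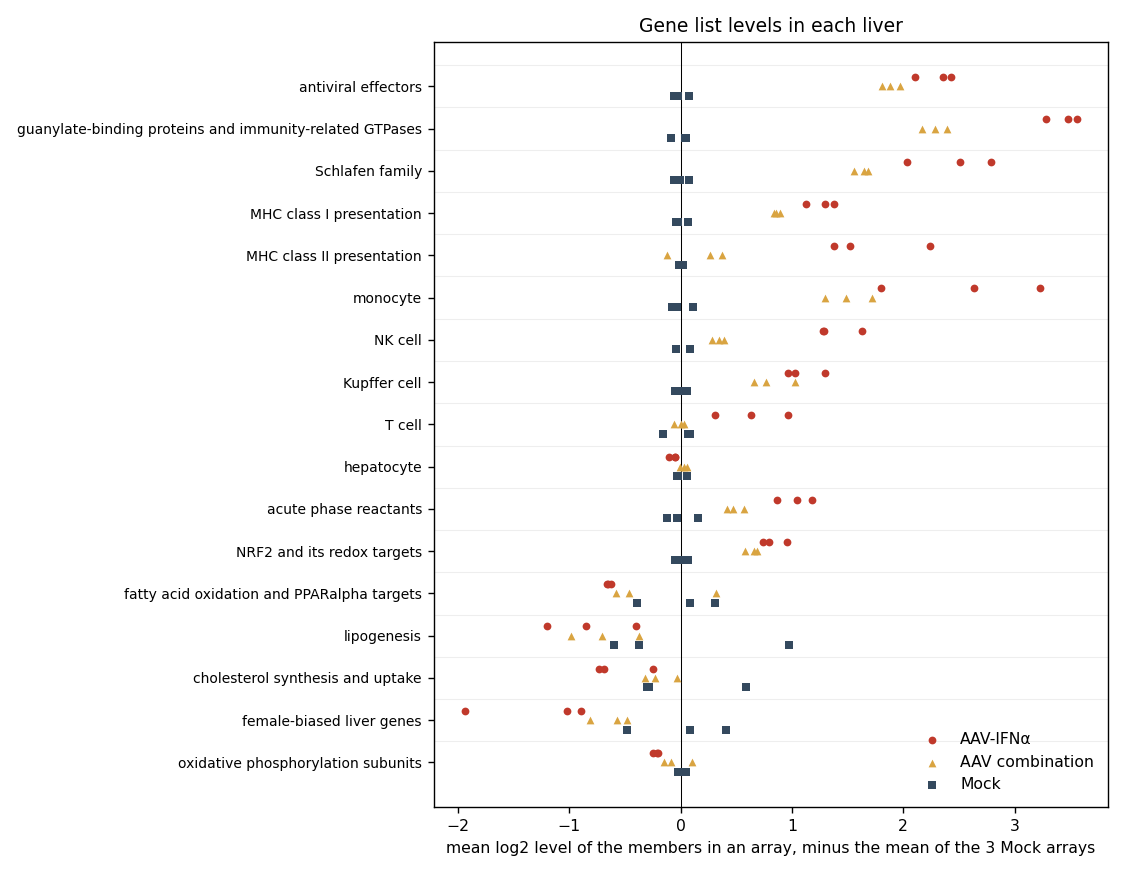
Mean log2 level of the members of a gene list in each liver, given relative to the mean of the 3 Mock livers, with AAV-IFNα in red circles, the AAV combination in yellow triangles and Mock in dark squares. The AAV-IFNα livers lie above every Mock liver in the immune lists, with a wide spread for monocyte markers, and the Mock livers themselves spread widely for lipogenesis and the female-biased genes.

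The acute phase response, by which the liver secretes defence proteins, was seen in 12 of 19 genes, all tested, with a median of 0.75. Lcn2, a protein that binds bacterial iron carriers, read 11.91, 11.42 and 11.52 in AAV-IFNα livers and 6.04, 6.93 and 7.41 in Mock livers, a log2 fold change of 4.82 (SE 0.29, adjusted p = 1.41e-07). Saa1, serum amyloid A, read 9.03, 8.08 and 8.52 in AAV-IFNα livers and 6.75, 7.64 and 7.22 in Mock livers, and rose by 1.34. Lbp, which presents lipopolysaccharide, rose by 1.32. Smaller increases were found in very abundant transcripts, with haptoglobin (Hp) higher by 0.83, hemopexin (Hpx) by 0.75 and ceruloplasmin (Cp) by 0.67. Among protease inhibitors of the Serpina3 cluster, 3 of 9 genes listed were tested. Serpina3f rose by 3.17 and Serpina3n by 0.64, while Serpina3i read 6.97, 6.88 and 6.92 in AAV-IFNα livers and 7.03, 6.82 and 6.92 in Mock livers.

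Complement components of the liver rose in 8 of 19 genes tested, with a median of 0.37. C2, the protease of the classical pathway, read 9.80, 9.64 and 9.66 in AAV-IFNα livers and 7.83, 8.20 and 8.25 in Mock livers, a log2 fold change of 1.61. C9, which forms the membrane pore, rose by 1.22 and C1ra by 1.15. Of 15 coagulation genes tested 1 rose and none fell, while 11.2% of all probe sets were raised and 5.06% lowered. That gene was Pros1, an anticoagulant cofactor, at 0.82, while prothrombin (F2) differed by 0.09 and antithrombin (Serpinc1) by -0.13. Of 16 genes of iron handling 7 rose. Hmox1, which breaks down heme, read 9.61, 9.06 and 9.64 in AAV-IFNα livers and 7.04, 7.49 and 7.41 in Mock livers, a log2 fold change of 2.12, whereas the iron hormone Hamp differed by 0.41 (adjusted p = 0.0717).

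Genes of the redox regulator NRF2 and of glutathione conjugation rose together. Of 15 tested NRF2 genes 10 rose, with a median of 0.84, and of 19 tested glutathione transferases 9 rose, with a median of 0.25 that was 0.13 without Mock replicate 3. Gsta2 read 9.57, 10.14 and 9.67 in AAV-IFNα livers and 6.10, 5.59 and 6.26 in Mock livers, a log2 fold change of 3.81 (SE 0.21, adjusted p = 7e-08). Gstp1 and its near-identical copy Gstp2 rose by 1.90 and 1.84, and Gstm1, an abundant transcript, by 1.00. The quinone reductase Nqo1 read 7.84, 8.16 and 7.65 in AAV-IFNα livers and 5.94, 6.28 and 6.10 in Mock livers, and rose by 1.78, and the sulfiredoxin Srxn1 by 1.5. Nfe2l2, which encodes NRF2 itself, differed by 0.42 (adjusted p = 0.0524).

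Fatty acid enzymes under the control of the nuclear receptor PPARα held the largest decreases of any named gene. Acot3, a peroxisomal acyl-CoA thioesterase, read 6.40, 7.31 and 6.98 in AAV-IFNα livers and 10.03, 10.46 and 9.99 in Mock livers, a log2 fold change of -3.26 (SE 0.28, adjusted p = 3.89e-06). Its cytosolic relative Acot1 read 5.30, 5.18 and 5.62 in AAV-IFNα livers and 9.51, 7.43 and 8.80 in Mock livers, a log2 fold change of -3.21. The Mock livers differed by more than 2 log2 units among themselves, yet none overlapped with the injected mice. The fatty acid omega-hydroxylase Cyp4a10 read 8.46, 7.96 and 8.60 in AAV-IFNα livers against 11.33, 10.05 and 11.20 in Mock livers, and fell by 2.52. Cyp4a14 fell by 2.75 (adjusted p = 0.0224). That call ended when Mock replicate 1 (-2.36, adjusted p = 0.0827) or 3 (-2.56, adjusted p = 0.0729) or AAV-IFNα replicate 2 (-2.16, adjusted p = 0.106) was left out, and with a trended and robust prior (adjusted p = 0.128). These thioesterases and Cyp4a genes have close copies.

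The decrease did not extend to the whole pathway. Of 33 listed genes of fatty acid oxidation and PPARα targets 30 were tested, 8 fell and 2 rose, with a median of -0.31 that was -0.20 without Mock replicate 1. The lowered count was 5 without Mock replicate 1 or 3 and 12 without AAV combination replicate 1. Ppara itself read 9.22, 9.51 and 9.38 in AAV-IFNα livers and 9.69, 9.05 and 9.57 in Mock livers, with overlap. Cpt1a, the gate of mitochondrial oxidation, differed by 0.01. The fatty acid transporter Cd36 read 8.59, 8.60 and 8.49 in AAV-IFNα livers and 7.35, 7.12 and 7.08 in Mock livers, and rose by 1.38. Among lipid-binding proteins the abundant Fabp1 fell by 0.78 (adjusted p = 0.0159). That call ended when Mock replicate 1 (-0.71, adjusted p = 0.0583) or 3 (-0.75, adjusted p = 0.0506) or AAV-IFNα replicate 2 (-0.72, adjusted p = 0.0657) was left out. Fabp5 read 5.89, 7.83 and 6.51 in AAV-IFNα livers and 8.33, 10.04 and 8.75 in Mock livers, and fell by 2.29, with the call lost under a trended and robust prior (adjusted p = 0.0692). Fabp4, known from adipocytes and macrophages, rose by 1.36.

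Lipid synthesis was variable in the Mock livers. Fasn, fatty acid synthase, read 9.34, 10.26 and 9.51 in AAV-IFNα livers and 9.81, 12.01 and 9.94 in Mock livers, where replicate 2 stood well above the others. Its difference of -0.89 was not called (adjusted p = 0.221). Of 15 lipogenic genes tested 2 fell and none rose, with a median of -0.70 that was -0.26 without Mock replicate 2, namely the glucose-responsive factor Mlxipl at -0.70 and the elongase Elovl3 at -1.47. Mlxipl was not called without AAV-IFNα replicate 2 (-0.63, adjusted p = 0.0531). Genes of cholesterol synthesis and uptake fell in 6 of 17 tested, with a median of -0.46. Leaving out AAV-IFNα replicate 1 left 2 of these calls. The median moved to -0.21 when Mock replicate 2 was omitted, and to -0.70 when AAV-IFNα replicate 2 was. Cyp51 read 9.37, 9.76 and 9.34 in AAV-IFNα livers and 10.22, 10.59 and 10.22 in Mock livers, a log2 fold change of -0.85 with no overlap. Nsdhl fell by 0.88 and Fdps by 0.95. The value of Fdps was -0.61 without Mock replicate 2, and its call ended without AAV-IFNα replicate 1 (-0.81, adjusted p = 0.0836).

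Of 16 genes of bile acid synthesis and transport 2 rose and 2 fell, beside 11.2% raised and 5.06% lowered over all probe sets. Cyp7a1, the rate-limiting enzyme of bile acid synthesis, read 9.13, 10.06 and 9.51 in AAV-IFNα livers and 9.80, 11.06 and 9.32 in Mock livers, with overlap. Slco1a1, a transporter for organic anions, read 4.63, 6.73 and 5.85 in AAV-IFNα livers and 10.31, 7.39 and 8.80 in Mock livers, so that both groups spread over more than 2 log2 units. It fell by 3.10 (SE 0.70, adjusted p = 0.00932), a call that ended under a trended and robust prior (adjusted p = 0.0866). Cyp7b1, an enzyme of the alternative pathway, rose by 0.87, and Cyp27a1 fell by 0.45 (adjusted p = 0.034), a call that ended when AAV-IFNα replicate 1 (-0.33, adjusted p = 0.141) or 2 (-0.50, adjusted p = 0.0505) or Mock replicate 1 (-0.42, adjusted p = 0.0941) or 2 (-0.43, adjusted p = 0.0725) was left out. The Cyp27a1 call also ended in a fit of the 6 AAV-IFNα and Mock arrays alone (adjusted p = 0.0666). Left-out arrays brought either count of this list down to 1.

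**Figure D5:**
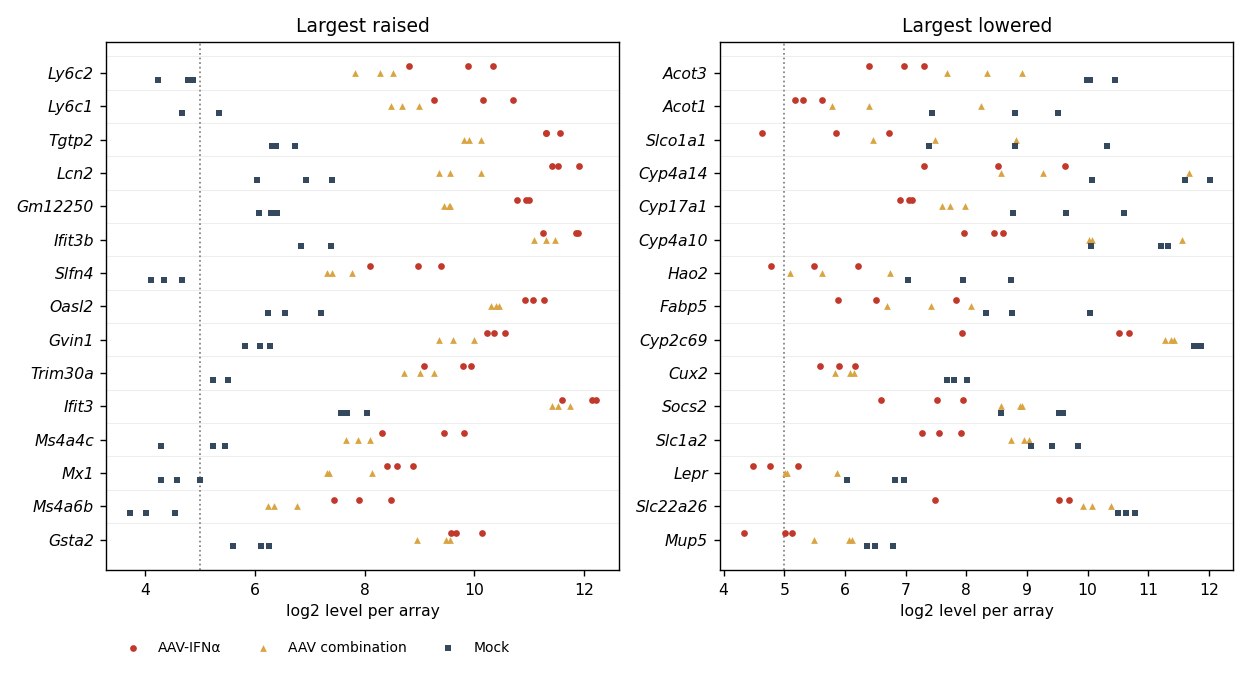
Log2 level in each array for the 15 raised and the 15 lowered genes with the largest log2 fold change among those called without overlap, with AAV-IFNα in red circles, the AAV combination in yellow triangles and Mock in dark squares, and a dotted line at the filter value of 5. By this choice no gene shown overlaps between AAV-IFNα and Mock. The lowered Slco1a1 and Cyp4a14 and the raised Ly6c2 are among those that vary by more than 1 log2 unit within a group.

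Many genes that are more active in female than in male mouse liver fell. This sex difference is set in mice by the pattern of growth hormone release, read through STAT5 in hepatocytes, and these mice were all female. Of 19 female-biased genes listed 17 passed the filter, 9 fell and none rose, with a median of -1.32 against -0.02 over all probe sets. The median was -0.85 without AAV-IFNα replicate 1. Cux2, a factor that represses male-biased genes, read 5.59, 5.90 and 6.17 in AAV-IFNα livers and 7.68, 7.80 and 8.01 in Mock livers, a log2 fold change of -1.95 (SE 0.16, adjusted p = 2.81e-06). Cyp17a1, a steroid hydroxylase, read 7.06, 7.10 and 6.91 in AAV-IFNα livers and 8.76, 10.60 and 9.64 in Mock livers, and fell by 2.64. The oxidase Hao2 fell by 2.41 and Cyp3a44 by 0.99. A1bg, another member, read 5.71, 7.99 and 8.72 in AAV-IFNα livers and 7.36, 10.65 and 8.37 in Mock livers, and was not called.

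Part of this list rested on AAV-IFNα replicate 1. Cyp2c69 read 7.93, 10.69 and 10.52 in AAV-IFNα livers and 11.77, 11.86 and 11.76 in Mock livers. It fell by 2.09 with all arrays and by 1.19 without that mouse. Sult3a1, a sulfotransferase, read 6.19, 8.46 and 7.90 in AAV-IFNα livers and 9.23, 9.12 and 9.26 in Mock livers, and fell by 1.69 with all arrays and by 1.02 without that mouse. Its call ended without Mock replicate 3 (-1.66, adjusted p = 0.0501). Under a trended and robust prior neither gene was called (adjusted p = 0.0989 for Cyp2c69 and 0.094 for Sult3a1). Cyp2c69 belongs to a cluster of close copies.

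Male-biased genes went in both directions, with 5 of 14 tested raised and 3 lowered and a median of 0.17. The raised ones included Gstp1, Cyp7b1, Cyp2d9 (0.75) and Cyp4a12a, a male-specific fatty acid hydroxylase that read 5.18, 6.10 and 5.24 in AAV-IFNα livers and 4.13, 4.64 and 4.01 in Mock livers. The lowered ones included Slco1a1 and Elovl3. Along the growth hormone and STAT5 pathway 10 genes were tested, of which 3 fell and none rose. Socs2, a feedback inhibitor that growth hormone induces, read 6.60, 7.94 and 7.52 in AAV-IFNα livers and 9.59, 8.58 and 9.52 in Mock livers, a log2 fold change of -1.88 (adjusted p = 0.00114). Lifr, the receptor for leukemia inhibitory factor, fell by 1.13 and Igfals, the carrier subunit of IGF-1, by 0.76. Ghr, the growth hormone receptor, differed by -0.17 and Igf1 by -0.42, and neither was called.

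Major urinary proteins are small carriers of pheromones that the liver secretes in quantity. They were in no list of their own and were gathered after their values were seen. Of 9 genes with a Mup symbol tested 8 fell, and Mup20 differed by 0.42 (adjusted p = 0.272). Mup2 read 11.27, 12.18 and 11.91 in AAV-IFNα livers and 13.30, 13.11 and 13.15 in Mock livers, a log2 fold change of -1.40 (SE 0.20, adjusted p = 0.000312). Mup9, Mup22, Mup19 and Mup3 fell by 1.46, 1.30, 1.20 and 1.37, and Mup5, at a lower level, by 1.72. All of these were lowest in AAV-IFNα replicate 1, as were Mup6 and Mup21, which fell by 1.52 and 1.26. The genes of this cluster are nearly identical, and their probe sets may read each other's transcripts. Other abundant transcripts that fell were Cyp2e1, which oxidizes ethanol, by 0.72, and Rgn by 0.65. The call of Rgn ended without AAV-IFNα replicate 1 (-0.51, adjusted p = 0.0583).

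Outside these lists, the leptin receptor Lepr read 4.77, 5.23 and 4.49 in AAV-IFNα livers and 6.83, 6.03 and 6.98 in Mock livers, a log2 fold change of -1.78 (adjusted p = 0.000692). Slc1a2, a glutamate transporter of perivenous hepatocytes, read 7.27, 7.55 and 7.92 in AAV-IFNα livers and 9.84, 9.07 and 9.41 in Mock livers, and fell by 1.86. Slc22a26, an organic anion transporter, fell by 1.73 with all arrays and by 1.03 without AAV-IFNα replicate 1, and its call ended under a trended and robust prior (adjusted p = 0.0856). Ms4a6b, a membrane protein of leukocytes, read 8.48, 7.90 and 7.43 in AAV-IFNα livers and 3.71, 4.54 and 4.01 in Mock livers, and rose by 3.86. Ly6e, an abundant interferon-induced surface protein, rose by 1.63.

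Drug-metabolising enzymes did not move in a common direction. Over all probe sets tested, 11.2% were raised and 5.06% lowered, and several counts given here lie near those shares. Of 33 tested cytochrome P450 genes of families 1 to 3, 4 rose and 3 fell, with a median of -0.13. Cyp3a11, a major enzyme for xenobiotics, read 12.17, 12.13 and 12.33 in AAV-IFNα livers and 12.16, 12.14 and 12.11 in Mock livers. Cyp2c37 fell by 0.91. Of 19 sulfotransferases and glucuronosyltransferases tested 2 rose and 3 fell, and the lowered count was 1 without Mock replicate 3 or AAV-IFNα replicate 1. Ugt2b35 rose by 1.60 and Ugt2b36 by 0.56. Of 27 nuclear receptors tested 2 rose, the sterol sensor Nr1h3 by 0.63 and Pparg by 0.99. Nr2f6 fell by 0.47 (adjusted p = 0.0496), a call that ended when AAV-IFNα replicate 1 (-0.44, adjusted p = 0.136) or 2 (-0.40, adjusted p = 0.159), Mock replicate 1 (-0.44, adjusted p = 0.119) or 3 (-0.36, adjusted p = 0.166) or any AAV combination replicate (adjusted p between 0.0591 and 0.0692) was left out. The call also ended with no filter (adjusted p = 0.0649) and in a fit of the 6 AAV-IFNα and Mock arrays alone (adjusted p = 0.087). With arrays centred on their median it was lost as well (-0.46, adjusted p = 0.0559).

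In 6 pathway lists no gene was called, and they are grouped here by that outcome. Among the genes tested, none of 20 secreted proteins and identity factors, 7 urea cycle genes and 13 genes of glucose metabolism was called by limma. The same held for 16 ribosomal proteins, 15 genes of the unfolded protein response and 15 clock genes. In limma 12 of these 86 genes had an unadjusted p under 0.05, as did 4701 of all 14715 probe sets tested. Without Mock replicate 2 or 3, 1 identity gene was called lowered, and without Mock replicate 2, 2 glucose genes were. Hnf4a, the central factor of hepatocyte identity, read 9.65, 9.98 and 9.68 in AAV-IFNα livers and 9.74, 9.47 and 9.52 in Mock livers. Of 15 genes of amino acid catabolism tested Tdo2, which degrades tryptophan, rose by 0.65 and Oat, ornithine aminotransferase, fell by 0.81. The call of Tdo2 ended when Mock replicate 2 (0.51, adjusted p = 0.0554) or 3 (0.58, adjusted p = 0.0617) or AAV-IFNα replicate 1 (0.65, adjusted p = 0.0508) or 2 (0.63, adjusted p = 0.0574) was left out. That of Oat ended when Mock replicate 1 (-0.67, adjusted p = 0.0656) or AAV-IFNα replicate 2 (-0.78, adjusted p = 0.0583) was. Transthyretin (Ttr) differed by 0.04. Cps1, the entry enzyme of the urea cycle, differed by 0.20, the chaperone Hspa5 by 0.39 and the clock gene Per1 by -0.06. Pck1, of gluconeogenesis, read 11.61, 11.16 and 11.42 in AAV-IFNα livers and 11.47, 9.07 and 11.60 in Mock livers, where replicate 2 was low, the same mouse in which Fasn was high.

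A minority of the subunits of oxidative phosphorylation fell. Of 48 tested 8 fell and none rose, with a median of -0.21. Ndufb10, of complex I, read 6.71, 6.66 and 6.59 in AAV-IFNα livers and 7.21, 7.45 and 7.47 in Mock livers, a log2 fold change of -0.72 (adjusted p = 0.00216), and Cox4i1, of complex IV, fell by 0.54. The lowered count was 2 without Mock replicate 1 or AAV-IFNα replicate 2, and the call of Cox4i1 ended when AAV-IFNα replicate 1 (-0.59, adjusted p = 0.0542) or 2 (-0.44, adjusted p = 0.119) or Mock replicate 1 (-0.54, adjusted p = 0.0741) or 3 (-0.50, adjusted p = 0.0871) was left out. Of 10 genes often used as a reference in RT-qPCR, 3 rose, with a median of 0.29, a count that was 1 without Mock replicate 3 or AAV-IFNα replicate 1 or 2, and 4 when AAV-IFNα replicate 3 was left out. Actb read 12.35, 12.19 and 11.93 in AAV-IFNα livers and 11.52, 11.55 and 11.70 in Mock livers, a log2 fold change of 0.57, which was not called without AAV-IFNα replicate 1 (0.47, adjusted p = 0.0621). Rplp0 differed by -0.07 and Gapdh by 0.37, and neither was called.

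Genes of cell division and of the p53 response rose in part. Of 25 cell cycle genes listed 18 passed the filter, 2 of them (Plk1 and Mcm4) not in Mock livers. Of the 18 genes 5 rose, with a median of 0.29. Of the 16 that passed the filter in Mock livers 3 rose, and 11.2% of all probe sets tested were raised. Mki67, the proliferation marker Ki-67, read 7.69, 7.39 and 7.04 in AAV-IFNα livers and 5.09, 6.01 and 5.53 in Mock livers, a log2 fold change of 1.83 (adjusted p = 0.000554). Mcm6, of the replicative helicase, rose by 1.20 and the mitotic kinase Plk1 by 1.49. Which cells carried these transcripts was not tested, and leukocyte markers moved with them. Of 8 p53 targets tested 4 rose, of which Eda2r did not pass the filter in Mock livers. Cdkn1a, the cell cycle inhibitor p21, read 8.07, 8.08 and 7.25 in AAV-IFNα livers and 5.23, 5.06 and 5.09 in Mock livers, a log2 fold change of 2.67 (adjusted p = 1.29e-06), Ccng1 rose by 1.14 and Eda2r by 1.24.

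The AAV combination livers, which share the Mock livers as their control, give context for a few of these genes, chosen after their values were seen. Isg15 was higher than in Mock livers by 3.44 with AAV-IFNα and by 3.06 in the combination, and Ifit3 by 4.23 and 3.81. Socs1 was higher by 2.04 with AAV-IFNα and differed by -0.19 in the combination, Ciita by 1.55 and -0.15, H2-DMb1 by 2.62 and 0.48, and Gbp2 by 3.81 and 1.41. Among the lowered genes, Cux2 differed by -1.95 with AAV-IFNα and by -1.81 in the combination, while Lifr differed by -1.13 and 0.11. The difference between the injected groups was not tested here.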

How the data were processed

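Expression was measured in the liver of 9 female mice, 3 in each of 3 groups (AAV-IFNα, AAV combination and Mock), with 1 array per mouse. The authors processed Affymetrix Clariom S mouse arrays with the RMA algorithm, which corrects background, normalizes between arrays and summarises probes, and the deposited values are log2 levels per probe set. Scanner files were not used here, so a level below background cannot be told from a low one, and genes that share probes with close relatives may be mixed. The methods give 100 ng of total RNA per array, whereas polyA RNA is named in the labels and another Affymetrix array in the design text; probe set names and annotation are those of Clariom S. The genome build behind the array annotation is not given in the sources used here. Gene symbols came from the platform annotation, with 19527 of 22142 probe sets carrying 1 symbol and 2615 none here, and each gene was represented by its probe set with the highest mean over all arrays.

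Probe sets that exceeded 5 in 2 or more arrays of 1 condition were fitted with limma 3.58.1 in R 4.3.3 (lmFit and eBayes, 9 arrays, 6 residual and 6.91 prior degrees of freedom), with the contrast AAV-IFNα minus Mock, two-sided, at a Benjamini-Hochberg adjusted p under 0.05 over all probe sets tested. An exact permutation test of 3 against 3 arrays cannot give a two-sided p below 0.10 and was not used. Genes named were the 15 raised and 15 lowered with the largest change and no overlap between groups, the first 2 genes and up to 3 of smallest p in each list, the 10 most abundant called in each direction, and Ifna1. The 46 pathway lists and 17 marker lists hold 922 genes, of which 829 are on the array. The comparison and lists were chosen with earlier results of these data known. Promoter sequences came from RefSeq (GRCm38.p6). The fit was tested on simulated data, and Python 3.11.15 with matplotlib 3.10.9 drew the figures. Alternatives were other filters, samples in the fit, variance priors, scalings, array weights, a replicate block, stricter thresholds, 1 probe set per gene, and each array left out in turn.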

Additional observations from a re-analysis of the deposited data

How the results depend on the processing

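The number of probe sets called, 2400, lay between 1973 and 2541 under other filters, priors, scalings, array weights, 1 probe set per gene and a fit of the 6 AAV-IFNα and Mock arrays alone. Stricter thresholds lowered it: a log2 fold change of at least 1 left 671 called (600 raised and 71 lowered), and a B-statistic above 0 left 888 (768 raised and 120 lowered). Another quantile normalization gave 1157 lowered, against 745, so that 54.5% of calls were raised in place of 69.0%, and the median over all probe sets moved to -0.07, against -0.02. With each of the 9 arrays left out in turn, 1495 to 2424 were called, 1114 to 1658 raised and 381 to 766 lowered. Leaving out AAV-IFNα replicate 1 or 2 left 1114 raised either way, and 381 or 401 lowered. Deviations from the group mean correlated at -0.01, 0.22 and 0.11 between same-numbered AAV-IFNα and Mock arrays, for replicates 1, 2 and 3. The highest correlation with a Mock array of another number was 0.15, -0.0045 and 0.02. With 3 arrays per group these values cannot settle whether the replicate numbers pair the mice. With the replicate number as a block 2389 were called. Of 266 named genes, 186 were called. Over the alternatives other than the stricter thresholds, and where a gene was still tested, 33 lost a call in at least 1 and 18 gained one. No named gene that was called here or in such an alternative changed direction there. Changes of sign in genes called in neither were not counted. No probe set called both here and in an alternative changed sign. With 3 mice per group and array data, small changes of dim probe sets remain below what could be detected.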
